A study of Rattus norvegicus with 7 samples.

Results

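The miR-200 family comprises rno-miR-200a, rno-miR-200b, rno-miR-200c, rno-miR-141 and rno-miR-429, written below without the species prefix. Its 5 members were taken by name from the 677 rat miRNAs on an Agilent miRNA array, with their passenger strands left out. The islets came from male Wistar rats, 4 of them 12 months old (replicates 2, 4, 10 and 16) and 3 of them 3 months old (replicates 9, 11 and 13). No other treatment or allele is given in the labels for either age. Islets were isolated by collagenase digestion, and Cy3-labelled total RNA of each rat was hybridised to 1 single-colour array. The comparison asks how the islet levels of these miRNAs differ with age.

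A miRNA guides the silencing complex to messenger RNAs by pairing of its seed, bases 2 to 8 from its 5′ end. The miR-200 family is expressed in epithelial cells. Its best-known targets are the transcription factors Zeb1 and Zeb2, which repress E-cadherin and other epithelial genes, and which in turn repress the miR-200 genes. Pancreatic endocrine, duct and acinar cells are all of epithelial origin, so whole islets with some exocrine carry-over can hold the family from more than 1 cell type. In bulk islet RNA, fewer cells of a type and less RNA per cell cannot be told apart.

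The mature strands below show the base that separates the 2 seeds of the family, with the seed in capitals (RefSeq, GRCr8).
miR-200c-3p: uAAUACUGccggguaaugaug
miR-141-3p: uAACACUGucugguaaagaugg
The 2 seeds differed by 1 of 7 bases, U4C, counted from the 5′ end with the base of miR-200c-3p first. Over the first 21 positions the 2 strands shared 17 bases.

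The hairpins of all members are given with the same 7 letters in capitals, because they show which member carries which seed and how the members lie in 2 genomic clusters (RefSeq, GRCr8, all on the minus strand). Mir200b lies at chr5:171931495-171931589, Mir200a at chr5:171930717-171930805, Mir429 at chr5:171929682-171929766, Mir200c at chr4:159209965-159210033 and Mir141 at chr4:159209525-159209618.
Mir200b: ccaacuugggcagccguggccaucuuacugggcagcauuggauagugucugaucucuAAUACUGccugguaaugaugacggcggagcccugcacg
Mir200a: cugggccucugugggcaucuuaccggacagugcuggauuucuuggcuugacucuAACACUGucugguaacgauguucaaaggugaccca
Mir429: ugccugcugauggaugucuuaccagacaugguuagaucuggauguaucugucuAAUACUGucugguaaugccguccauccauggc
Mir200c: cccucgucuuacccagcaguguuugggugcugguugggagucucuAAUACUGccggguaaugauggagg
Mir141: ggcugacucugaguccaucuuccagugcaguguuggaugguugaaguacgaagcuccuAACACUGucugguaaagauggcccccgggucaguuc
The letters AAUACUG stood in the hairpins of miR-200b, miR-200c and miR-429, and AACACUG in those of miR-200a and miR-141. Each of the 2 strings occurred in 4 of the 419 rat hairpins searched on the given strand, or 0.955%. The chromosome 5 cluster spans 1908 bases within Ttll10, a gene of the tubulin tyrosine ligase-like family. The chromosome 4 cluster spans 509 bases between Phb2, which encodes a prohibitin, and Ptpn6, which encodes the phosphatase SHP-1. The 2 seeds are therefore split over the 2 clusters, so that a grouping by cluster and a grouping by seed differ.

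Each member was read by 2 probes with 10 spots each. The scanner software called all 5 members detected on all 7 arrays, and no spot was saturated. The islet miRNAs miR-375 and miR-7a, which mark endocrine cells, were detected on all 7 arrays too. Signals are the software's background-subtracted total gene signal in arbitrary units. Their size depends on the probes, so the amounts of different miRNAs cannot be ranked from it. In brightness, miR-141 took ranks 6 to 13 of the 677 miRNAs over the 7 arrays, miR-200a ranks 21 to 23, miR-200c 24 to 31, miR-200b 25 to 33 and miR-429 34 to 39. The arrays of the older rats were brighter, with a 75th percentile of all miRNA signals from 67.1 to 73.8 units at 12 months and from 37.4 to 55.4 at 3 months. How the arrays are scaled therefore bears on every difference between the ages.

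No member of the family passed the test between the ages after normalisation. After quantile normalisation the 3 members of the chromosome 5 cluster lay within 0.10 of equality on the log2 scale, and both members of the chromosome 4 cluster had lower means at 12 months, by 0.25 and 0.30. Of the 5 members, 0 had a limma adjusted p below 0.05, where 1.47% of the 272 miRNAs tested did, and 0 had an unadjusted p below 0.05, where 21.7% did. The ages overlapped at all 5 members, while they did not overlap at 17.3% of the miRNAs tested. The median log2 difference was -0.10 over the members and 0.06 over all miRNAs tested.

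The chromosome 5 cluster is described first. Before normalisation, the total gene signal of miR-200b was 2246, 1934, 2605 and 2199 units in 12-month-old replicates 2, 4, 10 and 16. It was 1132, 1838 and 1275 units in 3-month-old replicates 9, 11 and 13. All older rats lay above all younger ones, and replicate 10 was the brightest of the 7. Before normalisation 249 of the 272 miRNAs tested had higher means at 12 months. The share of all miRNAs whose ages did not overlap before normalisation was not computed, so a lack of overlap there cannot be read as particular to a member. After quantile normalisation the order of the rats at miR-200b changed. Log2 signals were 10.71, 10.63, 11.22 and 10.63 at 12 months and 10.63, 10.88 and 11.17 at 3 months. Replicate 10 of the older rats and replicate 13 of the younger rats were now the highest of their ages, and the ages overlapped. The log2 difference of 12 minus 3 months was -0.10 (standard error 0.21, 95% interval -0.57 to 0.38, limma adjusted p = 0.899), from means of 10.80 ± 0.28 and 10.90 ± 0.27 (SD, n = 4 and 3).

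miR-200a, which lies beside miR-200b but carries the other seed, had signals of 3773, 3080, 3427 and 3269 units at 12 months and of 1817, 2738 and 1768 units at 3 months, in the same order of replicates. The ages did not overlap before normalisation, with the same limit as for miR-200b. Normalised values were the most even of the family, from 11.35 to 11.55 at 12 months and from 11.35 to 11.45 at 3 months. Their difference was 0.06 (standard error 0.13, 95% interval -0.23 to 0.36, limma adjusted p = 0.899).

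miR-429, the third product of this cluster, had signals of 2047, 1593, 1464 and 1790 units at 12 months and of 879, 1349 and 815 units at 3 months. Again the older rats were all brighter before normalisation, with the same limit. Normalised values ran from 10.35 to 10.51 at 12 months and from 10.22 to 10.55 at 3 months, so the older rats lay inside the range of the younger ones. The log2 difference was 0.03 (standard error 0.14, 95% interval -0.30 to 0.36, limma adjusted p = 0.953).

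In the chromosome 4 cluster, miR-200c had signals of 3151, 2531, 1856 and 2598 units in 12-month-old replicates 2, 4, 10 and 16 and of 1777, 2071 and 1268 units in 3-month-old replicates 9, 11 and 13. Here the ages overlapped even before normalisation, because replicate 10 lay below replicate 11. Normalised log2 signals were 11.13, 10.81, 10.81 and 10.97 at 12 months and 11.27, 11.13 and 11.13 at 3 months. The older replicate 2 shared the value of the younger replicates 11 and 13, and the other 3 older rats lay below all younger ones. The log2 difference was -0.25 (standard error 0.14, 95% interval -0.58 to 0.09, limma adjusted p = 0.399), the smallest adjusted p of the 5 members (two-sided exact permutation p = 0.114 unadjusted).

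miR-141 had signals of 10054, 7953, 5860 and 8983 units at 12 months and of 7291, 6544 and 4792 units at 3 months. Replicate 10 was the dimmest of the older rats and lay below 2 of the 3 younger ones. Normalised log2 signals were 12.79, 12.79, 12.52 and 12.79 at 12 months and 13.49, 12.79 and 12.79 at 3 months. Quantile normalisation gives equal ranks equal values, and miR-141 held rank 11 on 5 of the 7 arrays. Its difference of -0.30 (standard error 0.21, 95% interval -0.78 to 0.17, limma adjusted p = 0.493) came from 2 rats, replicate 9 at rank 6 and replicate 10 at rank 13. Without the younger replicate 9 it was -0.07. In the row of the slide where replicate 9 was the only younger rat it was -0.70, and in the other row -0.14. With the row as a block the difference of miR-141 was -0.36 (limma adjusted p = 0.312).

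**Figure D1:**
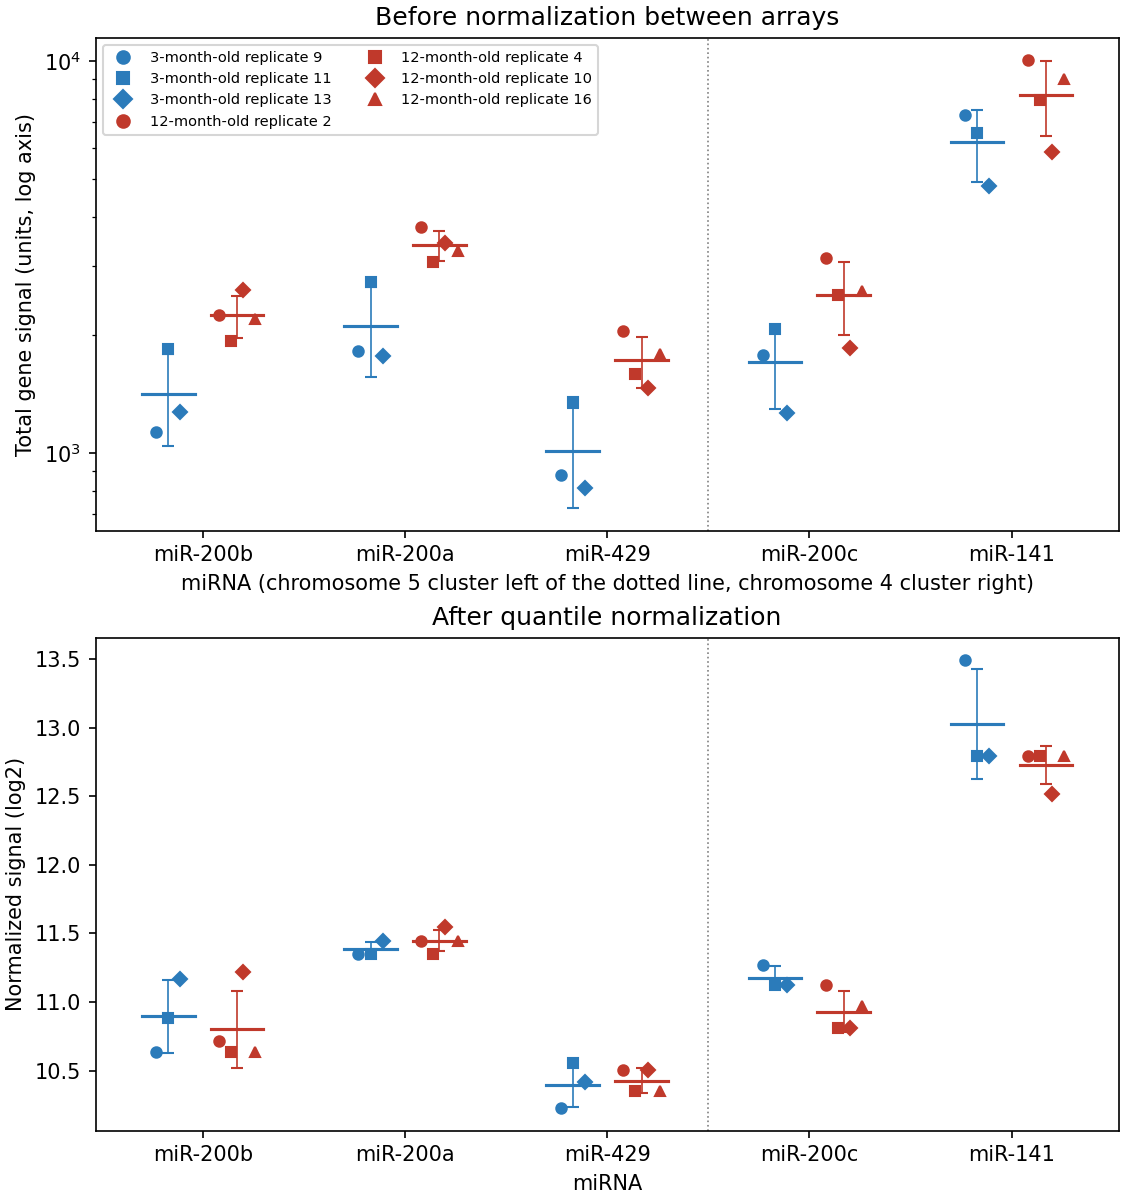
Signal of the 5 members in each rat, as total gene signal on a log axis (top) and as log2 signal after quantile normalisation (bottom). Symbols are rats, horizontal lines are means and bars are SD (n = 4 at 12 months, red, and n = 3 at 3 months, blue). Before normalisation, when 249 of the 272 miRNAs tested had higher means at 12 months, the ages do not overlap at miR-200b, miR-200a and miR-429. The share of all miRNAs without overlap before normalisation was not computed. After it they overlap at every member.

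The differences depended on the scaling of the arrays, most of all on whether the arrays were normalised. With no normalisation between arrays all 5 members were brighter at 12 months, by 0.69 for miR-200b, 0.71 for miR-200a, 0.79 for miR-429, 0.58 for miR-200c and 0.40 for miR-141 on the log2 scale. The median over the 272 miRNAs was then 0.79, and 249 of them were brighter at 12 months. The limma adjusted p of the first 3 was 0.0407, 0.0353 and 0.0311, and of the last pair 0.0812 and 0.218. In that setting 171 of the 272 miRNAs tested had an adjusted p below 0.05, so 3 of 5 members is not particular to the family. Relative to that median, miR-429 was level with the rest, and miR-141 lay 18% of the way up the ordered differences. miR-200c lay 25% and miR-200b 35% of the way up. Under the 5 scalings that normalise the arrays, miR-200c ranged from -0.29 to -0.06 and miR-141 from -0.47 to -0.18, so both had lower means at 12 months under each. miR-200b, miR-200a and miR-429 had both signs over the same scalings. The largest of these differences was that of miR-141 after scaling to miR-7a (-0.47, limma adjusted p = 0.275, with an unadjusted p below 0.05). After that scaling 36 of the 272 miRNAs tested had an unadjusted p below 0.05. The study used U6 or miR-7 as the reference for its miRNA qPCR.

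**Figure D2:**
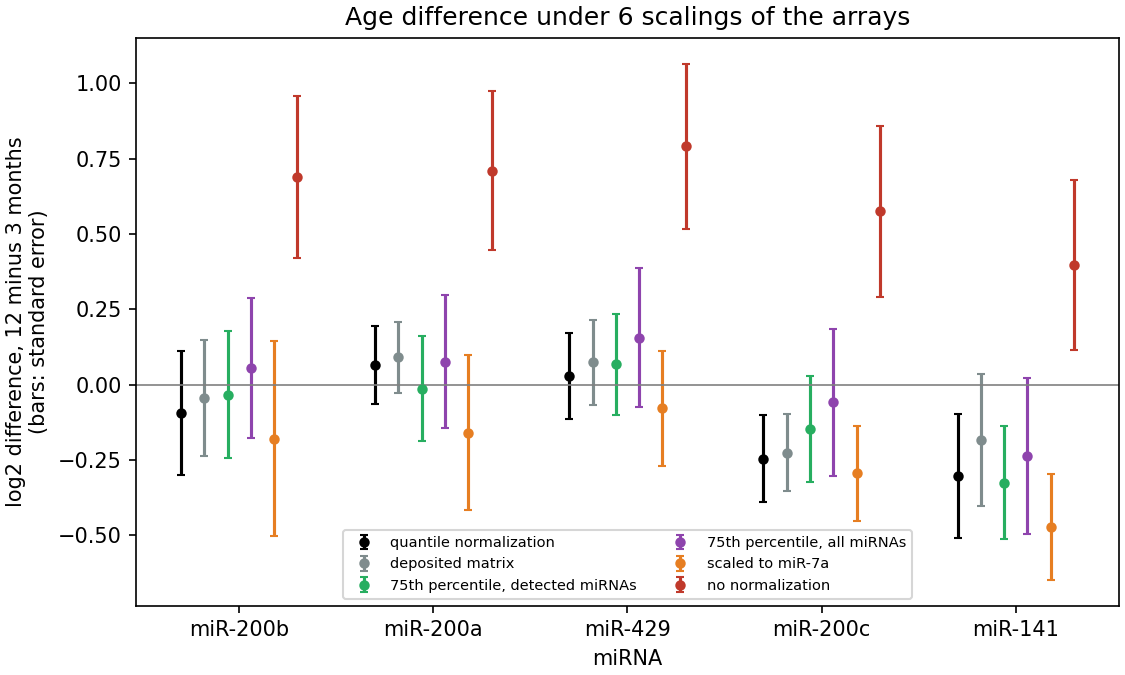
Log2 difference of 12 minus 3 months for each member under 6 scalings of the arrays, with standard errors as bars (4 and 3 rats). With no normalisation all 5 members lie between 0.40 and 0.79, and with any normalisation they lie between -0.47 and 0.16.

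Both probes of each member gave close differences. Without normalisation the brighter and the dimmer probe differed between the ages by 0.69 and 0.72 for miR-200b, 0.70 and 0.74 for miR-200a, 0.79 and 0.79 for miR-429, 0.57 and 0.58 for miR-200c and 0.41 and 0.33 for miR-141. The brighter probe gave from 65.5% to 89.2% of a member's signal on any array. How far the probe of one member also binds another is not given in the sources used here.

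The 2 clusters were then set against each other within each rat, with unnormalised signals, since a factor common to all miRNAs of an array cancels in a log2 difference within it. Quantile normalisation does not cancel in this way. The value was the mean log2 signal of miR-200b, miR-200a and miR-429 minus that of miR-200c and miR-141. Only its change between rats can be read, because its size depends on the probes. It was -1.12, -1.08, -0.49 and -1.04 in 12-month-old replicates 2, 4, 10 and 16 and -1.56, -0.96 and -1.01 in 3-month-old replicates 9, 11 and 13. Replicate 10 stood highest and replicate 9 lowest, and the other 5 rats of both ages lay between -1.12 and -0.96. The means of -0.93 ± 0.30 and -1.18 ± 0.34 (SD, n = 4 and 3) differed by 0.24 (standard error 0.25), less than the spread among rats of one age. Without replicate 10 the difference was 0.09, and without replicate 9 it was 0.05. It was 0.46 in the row of the slide with replicates 2, 4 and 9 and 0.22 in the other row.

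The same value for the 2 seeds, miR-200b, miR-200c and miR-429 against miR-200a and miR-141, varied less between rats. It was -1.34, -1.32, -1.22 and -1.32 at 12 months and -1.59, -1.30 and -1.41 at 3 months. Replicate 9 was again the lowest and replicate 10 the highest, and the ages overlapped. The means of -1.30 ± 0.05 and -1.43 ± 0.15 (SD, n = 4 and 3) differed by 0.13 (standard error 0.09). The difference was 0.015 (standard error 0.18) after quantile normalisation and -0.019 (standard error 0.21) in the deposited matrix, where its sign turned. The unnormalised difference became 0.05 without replicate 9 and 0.20 without replicate 11, where the ages no longer overlapped. It was 0.26 in the row of the slide where replicate 9 was the only younger rat, and 0.08 in the other row. No p is given for either value, since each is a score over members chosen with results known.

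**Figure D3:**
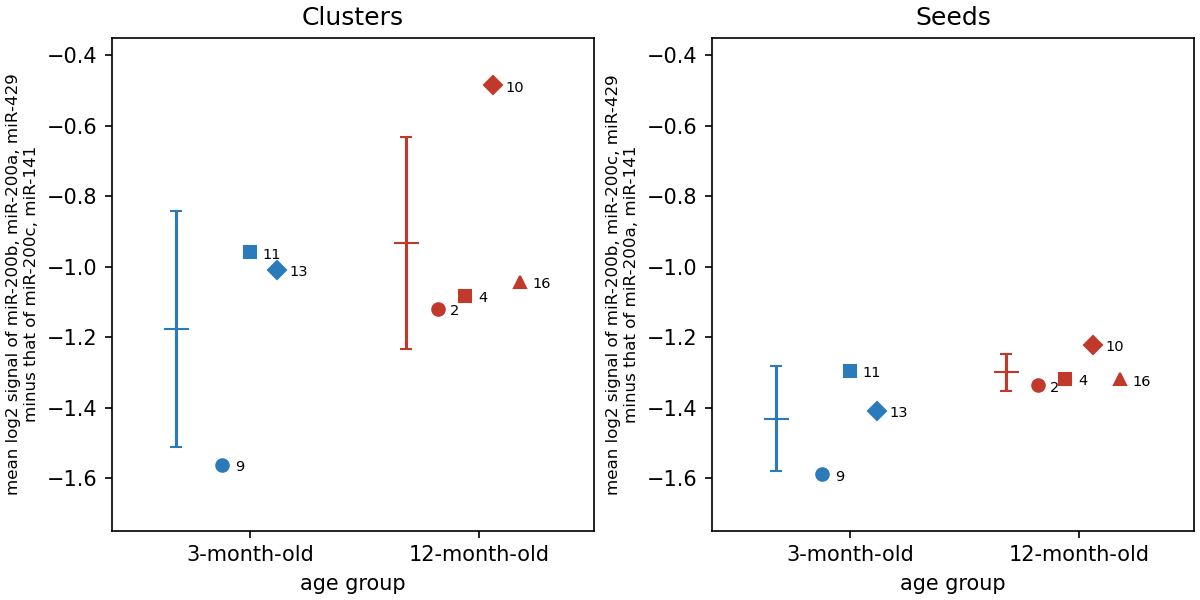
Difference within each array between the mean log2 signals of the 2 clusters (left) and of the 2 seeds (right), by age, with the replicate number beside each rat and the mean and SD of each age as bars. Replicate 10 at -0.49 and replicate 9 at -1.56 stand apart in the cluster panel, and the values of the seed panel keep within -1.59 and -1.22.

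Over all 7 rats, the ratio between 2 members had a smaller median spread for pairs of one cluster than for pairs of different clusters. The median for pairs of one seed was not smaller than that for pairs of different seeds, but seed and cluster were not separate among the pairs. The spread was taken as the SD over the 7 rats of the log2 signal ratio within an array. The 4 pairs from one cluster had SDs of 0.12 to 0.24 with a median of 0.14, and the 6 pairs from different clusters had 0.20 to 0.45 with a median of 0.34. Every SD takes in replicates 9 and 10, and none was computed without them. The log2 ratio of miR-429 to miR-200c, of different clusters, was -1.02 and -0.34 in these rats and -0.67 to -0.54 in the others. That of miR-200b to miR-429, of one cluster, was 0.37 and 0.83 in these rats and 0.13 to 0.65 in the others. The gap between the medians is therefore not shown to hold without these rats. The 4 pairs of one seed had a median of 0.30, and the 6 pairs of different seeds 0.21. Every pair of one seed except miR-200b with miR-429 lay in different clusters. The medians by seed can therefore not be told apart from the split by cluster. Over all 28203 pairs of the 238 miRNAs detected on every array the median was 0.44. These pairs include dim miRNAs and were not matched to the members in brightness, so part of a low percentage below may come from brightness. miR-200b and miR-200a, neighbours with different seeds, had the smallest SD of the 10 pairs in unnormalised signals (0.12), which 2.94% of all pairs undercut. After quantile normalisation the SD of this pair was 0.22, above that of miR-200a and miR-429 (0.11) and beside that of miR-200c and miR-141 (0.21) and of miR-200a and miR-200c, from different clusters (0.22). In unnormalised signals miR-200a and miR-429 followed (SD 0.13, 3.29%), then miR-200c and miR-141 (SD 0.15, 5.69%). miR-200b and miR-200c, which share the seed but lie on different chromosomes, had an SD of 0.37, which 40.7% of pairs undercut. The exception was miR-200b with miR-429, of one cluster and one seed, whose SD of 0.24 exceeded that of miR-429 with miR-200c (0.20). The pairs share their 5 members and 7 arrays, so these are descriptions with no test. With deviations taken from the mean of each age, the medians were 0.13 within and 0.31 between clusters, and miR-200c and miR-141 had the smallest SD (0.13).

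**Figure D4:**
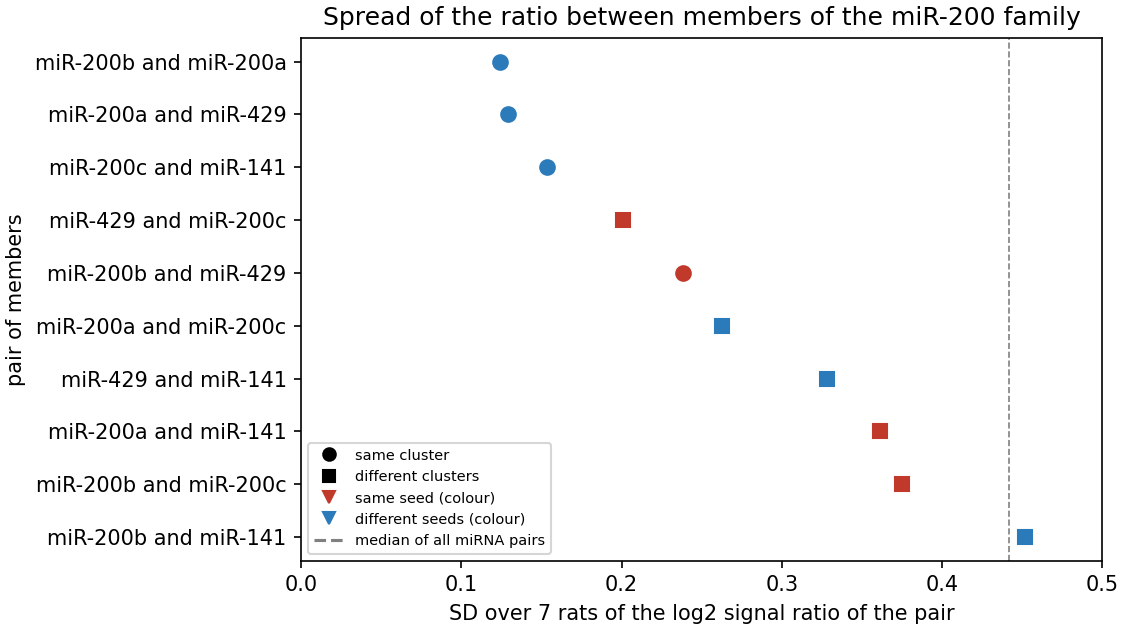
SD over 7 rats of the log2 ratio of unnormalised signals of each of the 10 pairs of members, with circles for pairs of one cluster, squares for pairs of different clusters, and colour for shared seed. The 3 smallest SDs (0.12 to 0.15) belong to pairs of one cluster with different seeds, and the dashed line is the median of all miRNA pairs, 0.44.

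By the same measure, the nearest of the other 237 miRNAs was miR-200b for miR-200a, and miR-200a ranked second for miR-200b. miR-141 ranked 21st of 237 for miR-200c, and miR-200c ranked sixth for miR-141. miR-200b ranked 150th for miR-200c. The order did not follow the clusters throughout. For miR-429, miR-200a ranked ninth, but miR-200c of the other cluster ranked 62nd and miR-200b of its own cluster 85th. For miR-200c, miR-429 ranked 55th. Among non-members, miR-28 was nearest to miR-200b (SD 0.11), miR-125b-5p to miR-200a (0.14), miR-30a* to miR-429 (0.10), miR-210 to miR-200c (0.09) and miR-99b to miR-141 (0.06). miR-30a was nearest to the mean of the 5 members (0.10). All are likenesses over 7 rats, replicates 9 and 10 among them.

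The ratios of miR-200b to miR-429 and to miR-200c were highest, at each age, in the rat with the most signal of acinar miRNAs. Acinar cells secrete digestive enzymes and surround the islets, and miR-217, miR-216a and miR-216b-5p are their known miRNAs. All 3 were detected on every array. Their summed signal was 149, 844, 1451 and 295 units in 12-month-old replicates 2, 4, 10 and 16 and 887, 1096 and 1722 units in 3-month-old replicates 9, 11 and 13. The log2 ratio of miR-200b to miR-429 in the same order was 0.13, 0.28, 0.83 and 0.30 at 12 months and 0.37, 0.45 and 0.65 at 3 months. At both ages the rat with the most acinar signal had the highest ratio, and the rat with the least had the lowest. The same held for the log2 ratio of miR-200b to miR-200c, with -0.49, -0.39, 0.49 and -0.24 at 12 months and -0.65, -0.17 and 0.01 at 3 months. Between these extremes at 12 months, replicate 4 had more acinar signal than replicate 16 but lower values of both ratios. The ratio of miR-429 to miR-200c was -0.62, -0.67, -0.34 and -0.54 at 12 months and -1.02, -0.62 and -0.64 at 3 months. Its lowest value at 12 months was not in the rat with the least acinar signal, and its highest at 3 months was not in the rat with the most. The relation of the 2 miR-200b ratios to the acinar signal was noticed in these values, and the part of acinar carry-over in the ratios was not tested. The acinar miRNAs themselves had lower means at 12 months, with log2 differences of -1.89 for miR-217, -2.11 for miR-216a and -2.19 for miR-216b-5p (limma adjusted p from 0.163 to 0.17, unadjusted p below 0.05 for 3 of 3, where 21.7% of all miRNAs tested had one).

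**Figure D5:**
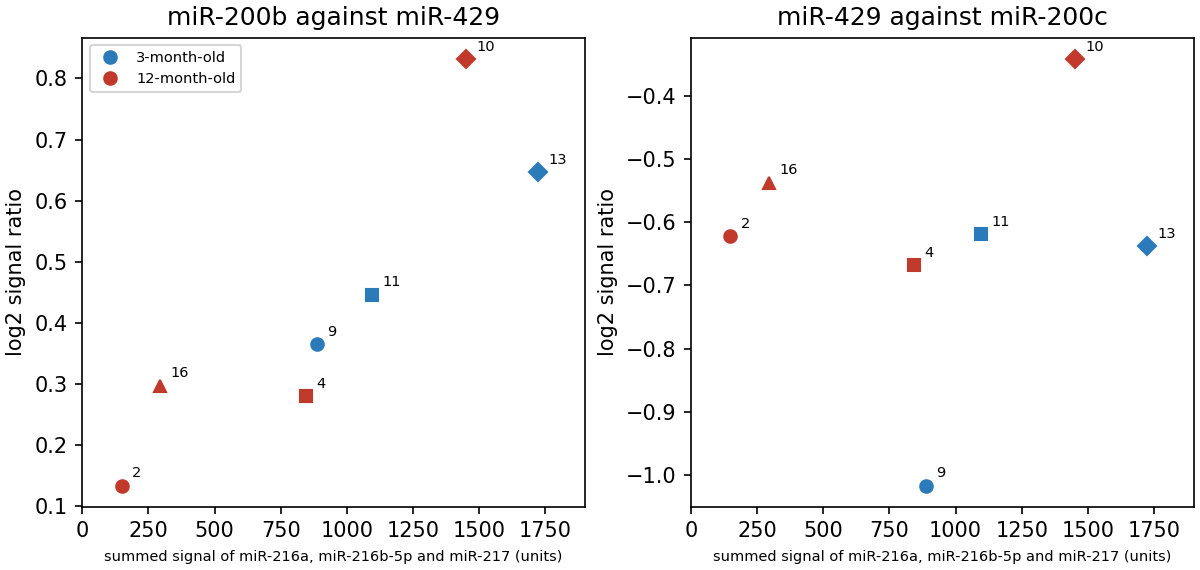
Log2 signal ratio of miR-200b to miR-429 (left) and of miR-429 to miR-200c (right) against the summed signal of 3 acinar miRNAs, with 1 symbol per rat and its replicate number (4 rats of 12 months, red, and 3 of 3 months, blue). The left ratio runs from 0.13 in the rat with the least acinar signal to 0.83 in replicate 10. Replicate 13, the rat with the most acinar signal, has 0.65. The right ratio shows replicate 9 apart at -1.02.

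The passenger strands of the same hairpins are the arms that are mostly degraded. Of 5 listed, 4 were on the array and 1, miR-200b*, was detected on all 7 arrays. Its signal was 15.5, 15.9, 21.8 and 17.9 units at 12 months and 7.08, 12.8 and 9.05 units at 3 months. Replicate 10 was the brightest, as it was for miR-200b, and miR-200b* was the second nearest non-member to miR-200b (SD of the ratio 0.16). After normalisation its log2 difference was 0.29 (standard error 0.24, limma adjusted p = 0.565). miR-200a*, miR-200c* and miR-141* were detected on no array. On the opposite strand, the hairpin of miR-3548 overlaps that of miR-200a, and that of miR-3575 overlaps miR-200c. Neither miR-3548 nor miR-3575 was detected on any array.

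Other epithelial miRNAs were miR-183, miR-96 and miR-182, which come from one cluster, miR-203 and miR-205, which represses Zeb1 and Zeb2 as the miR-200 family does. All 5 were tested, 4 had higher means at 12 months, and the median log2 difference was 0.08. Of the 5, 0 were called, where 1.47% of the 272 miRNAs tested were. An unadjusted limma p below 0.05 was found for 0 of the 5, where 21.7% of all tested had one. miR-96 gave 0.16, miR-183 gave 0.08 and miR-182 gave -0.19 (limma adjusted p = 0.680, 0.899 and 0.817). miR-205 gave 0.05 (standard error 0.39, limma adjusted p = 0.953) and miR-203 gave 0.56 (standard error 0.50, adjusted p = 0.594). Both were dim, at 9.10 to 31.2 and 5.11 to 43.4 units, and each was detected on 6 of 7 arrays.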

How the data were processed

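Islet miRNA of 4 rats aged 12 months and 3 aged 3 months was profiled on Agilent single-colour arrays. The authors deposited the scanner output of Agilent Feature Extraction (version 10.7.3.1 per the labels), with background-subtracted intensity on a linear scale and a detection flag (unit: other) per miRNA. They also deposited a log2 matrix, which the notes to a supplementary table describe as quantile normalised. From the scanner output, signals under 1 were set to 1, and log2 and quantile normalisation were applied over 677 rat miRNAs. limma (3.58.1, R 4.3.3; prior degrees of freedom 3.03) was fitted to the 272 miRNAs that were detected in all rats of either age, with Benjamini-Hochberg adjustment. Exact tests used the 35 splits of the rats and were two-sided, with a smallest p of 0.0286. Alternatives covered scaling, filter, floor, variance model, array weights, slide row, normexp with an offset of 16, the methods' t-test, leaving out each rat, and the deposited matrix. The pipeline was checked on simulated data. Named miRNAs were the 5 members, their passenger strands, listed epithelial and cell type miRNAs (endocrine, acinar, mesenchymal, blood, endothelial) and the nearest by ratio. The members and lists were chosen with earlier results of these data known. Between 246 and 296 miRNAs were detected per array, and the number of arrays limits the precision. Sequences were taken from RefSeq (GRCr8). The array design names an older assembly. Of the mature strands, miR-200a-3p, miR-200b-3p and miR-429 were not printed.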

Additional observations from a re-analysis of the deposited data

Results flagged for a closer look

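Among the 13 measures of the family checked in the 4 older rats, 4 had 1 rat far from the other 3. Dixon's ratio, which sets the distance from the outermost rat to its neighbour against the full range of the group, was above its 95% critical value. The rat was replicate 10 each time. The ratio was 0.862 for normalised miR-200b, where it was highest, and 1 for normalised miR-141, where it was lowest and the other 3 shared a rank. It was 0.879 for the difference between the clusters and 0.843 for the difference between the seeds. Chance flags about 1 in 20 such groups, and the 4 measures share members. No member's signal before normalisation passed the critical value. Replicate 10 also had the highest acinar signal of its age, at 1451 units against 149 to 844 in the other 3, and the part of this in the ratios was not tested.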

How the results depend on the processing

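The number of members called was 0 in 20 of 21 alternatives and 3 with no normalisation between arrays, where 171 of the 272 miRNAs tested were called. The log2 differences in that setting were 0.69 (miR-200b, sign turned), 0.71 (miR-200a), 0.79 (miR-429), 0.58 (miR-200c, sign turned) and 0.40 (miR-141, sign turned). The sign also turned for miR-200b with the 75th percentile of all miRNAs (0.057), for miR-200a with the 75th percentile of detected miRNAs (-0.012) and with miR-7a (-0.16), and for miR-429 with miR-7a (-0.078) and array weights (-0.046). In slide row 1 alone, where replicate 9 was the only younger rat, miR-429 gave 0.20 and miR-141 -0.70. The seed value moved to 0.015 after quantile normalisation, to -0.019 in the deposited matrix and to 0.26 in slide row 1. The median SD of pairs of one cluster was 0.21 after quantile normalisation and 0.20 in the deposited matrix, still below the 0.34 and 0.36 of pairs of different clusters. These medians take in replicates 9 and 10 too. With 1 rat left out, miR-200b ranged from -0.23 to 0.040 (above 0 only without the younger replicate 13), miR-200a from 0.03 to 0.11, miR-429 from -0.063 to 0.10 (below 0 without the younger replicate 9 or the older replicate 10), miR-200c from -0.31 to -0.18, miR-141 from -0.42 to -0.07, the cluster value from 0.05 to 0.35 and the seed value from 0.05 to 0.20, and no member was called. Over all miRNAs tested, 4 were called after quantile normalisation, against 171 with no normalisation, 48 with array weights, 21 with the 75th percentile of detected miRNAs, 15 with miR-7a, 10 with the 75th percentile of all miRNAs, 10 without the older replicate 10, 8 in the deposited matrix and 1 with the stricter filter. No paired analysis was possible because the ages share no replicate numbers. With 4 and 3 arrays, differences inside the printed intervals could not be told from 0.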

Other observations

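Markers of other islet and non-islet cells give the setting for these values. The endocrine miRNAs miR-375, miR-7a and miR-7b were detected on all arrays, 0 of 3 were called and all had lower means at 12 months, with a median log2 difference of -0.20. Of the 5 mesenchymal miRNAs (miR-143, miR-145, both strands of miR-199a and miR-214), 0 were called, 4 had an unadjusted limma p below 0.05 (21.7% of all miRNAs tested had one, and 1.47% were called) and all had higher means at 12 months, with a median of 1.16. Their summed signal before normalisation, when the arrays of the older rats were brighter, was 2629 to 3645 units at 12 months and 736 to 1711 units at 3 months. Most of it was miR-143, with 1818 to 2626 units at 12 months and 617 to 1414 units at 3 months. The normalised log2 difference of miR-143 was 0.38 (standard error 0.20, limma adjusted p = 0.324). Of 6 blood-cell miRNAs, 0 were called, 2 (miR-142-3p and miR-142-5p) had an unadjusted p below 0.05 against the same 21.7%, and the median was 0.14. The list was split, with higher means at 12 months for 3 and lower means for miR-223 (-0.05), miR-451 (-0.35) and miR-144 (-0.69), none with an unadjusted p below 0.05. The endothelial miR-126 gave 0.07 (standard error 0.15, limma adjusted p = 0.899).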
